A study of Arabidopsis thaliana with 24 samples.

Results

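The plasma membrane aquaporins of the series are 10 genes of the PIP (plasma membrane intrinsic protein) family, taken from the deposited table by their gene identifiers out of 27655 genes in all. They are followed here across rosettes of Arabidopsis thaliana Col-0, a wild-type accession, under salt, mannitol, heat and their combinations. The table names 5 of the PIP1 subfamily: PIP1A (systematic name PIP1;1, AT3G61430), PIP1B (PIP1;2, AT2G45960), PIP1C (PIP1;3, AT1G01620), PIP1;4 (AT4G00430) and PIP1;5 (AT4G23400). The 5 of the PIP2 subfamily are PIP2A (PIP2;1, AT3G53420), PIP2B (PIP2;2, AT2G37170), RD28 (PIP2;3, AT2G37180), PIP2E (PIP2;6, AT2G39010) and PIP3 (PIP2;7, AT4G35100). The symbols of the deposited table are used throughout. All 10 passed the filter on low counts that left 20027 genes for testing. The other 3 PIP genes of the table were not members and are described only beside them.

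There were 24 RNA-seq libraries of whole rosettes, 3 in each of 8 groups. Plants grew on soil under 16 h of light at 22 °C (18 °C at night), were transplanted at 2 weeks and treated 14 days later. The control group stayed at 22 °C with no solution recorded. The salt group had received 150 mM NaCl, the mannitol group 200 mM mannitol, and the salt plus mannitol group a mixture with both at these concentrations, each 16 h before harvest. The heat group spent the last 4 h at 35 °C in another cabinet, beginning 3 h after the lights came on, and the salt plus heat, mannitol plus heat and salt plus mannitol plus heat groups were watered in the same way and moved to 35 °C after 12 h. For control and heat plants the labels name no solution, so wherever one of these is the reference, an effect of the watering and one of its solutes cannot be told apart. Change of cabinet likewise cannot be told apart from heat. Single plants and pools are not distinguished in the labels, and p-values therefore cover only the spread between these samples.

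Aquaporins are membrane channels that let water cross a membrane along its gradient, and the PIPs are the ones that act at the cell surface. PIP2 proteins are efficient water channels on their own, whereas PIP1 proteins usually need a PIP2 partner in the same tetramer to reach the plasma membrane, and some PIPs also pass carbon dioxide or hydrogen peroxide. In leaves they carry water from the veins into the mesophyll and into guard cells, and they are controlled at the level of the protein as well, by phosphorylation, pH, trafficking and breakdown.

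The genes lie on 4 chromosomes. In TAIR10.1 coordinates from RefSeq, PIP1A is at chr3:22733243-22735394 on the plus strand, PIP1B at chr2:18910081-18911982 (plus), PIP1C at chr1:225665-227543 (minus), PIP1;4 at chr4:185285-187680 (minus) and PIP1;5 at chr4:12220641-12222468 (plus). PIP2A is at chr3:19803473-19805730 (minus), PIP2E at chr2:16291280-16294101 (plus) and PIP3 at chr4:16708361-16710407 (plus). PIP2B at chr2:15613368-15615022 (minus) and RD28 at chr2:15617635-15619155 (plus) are neighbours that point away from each other, with 2612 bases between their starts. Each of the 10 has 4 exons, and the number of other annotated genes overlapping any of them was 0.

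The coding sequences of the 10 genes resemble each other, which bears on how reads are shared out among them. Identity was 79.8% to 87.6% within PIP1, 71.9% to 94.8% within PIP2 and 70.2% to 75.9% between the subfamilies. PIP2B and RD28 were the closest pair, with 45 differing bases among 858 aligned. Of all stretches of 31 bases in the transcript model, 24.4% for PIP2B and 26.8% for RD28 also occurred in the model of another gene. For the remaining 8 members it was 0 to 2.42%. PIP2B shared 24.3% with RD28, and RD28 shared 26.8% with PIP2B. Reads from these 2 genes can therefore be split between them, and their single values are less certain than those of the other members. The most divergent stretch of 60 coding bases is shown because reads over such stretches separate the 2 genes, with the 10 differing bases in capitals and positions counted from the first coding base. The sequences, from RefSeq, run 5′ to 3′ along bases 543 to 602 of the PIP2B model and bases 414 to 473 of the RD28 model.
PIP2B: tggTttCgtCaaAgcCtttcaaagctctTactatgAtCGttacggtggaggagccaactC
RD28: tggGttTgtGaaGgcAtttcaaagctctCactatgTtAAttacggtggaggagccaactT

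Libraries held 12.5 to 19.5 M reads, and the member with the fewest reads in any library, RD28, still had 318. The second mannitol plus heat library stood apart: it was the shallowest, organelle genes took 0.690% of its reads (0.0242% at the low end of all libraries), and AT2G01021 reached 137226 TPM in it. TPM is a level corrected for transcript length and scaled to the library. Markers of root (7 genes, all under 1 TPM in every group mean, summed level 0.802 to 2.76 TPM over the 24 libraries) and flower (3 genes, 0.0613 to 0.506 TPM) were near 0, and the 4 of mesophyll were high, so the libraries hold the markers of the labelled rosette and next to none of root or flower. Marker levels of leaf cell types moved with the treatments: the 4 mesophyll genes summed to 50073 to 57492 TPM in control, 35633 to 46424 TPM in the other unheated groups and 18994 to 27482 TPM in heated libraries, and the 5 guard cell genes to 84.0 to 107 TPM in control and 18.4 to 59.0 TPM in all treated libraries. In bulk tissue, fewer cells of a type and a lower level of the marker genes themselves in each cell cannot be told apart. The part of these shifts in the PIP values was not tested. Values are mean TPM ± SD with n = 3 libraries, changes are log2 fold changes ± SE from counts, and the words rise and fall are kept for genes whose Benjamini-Hochberg adjusted p in edgeR's quasi-likelihood test, taken over all 20027 genes, was under 0.05.

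In control rosettes the family was dominated by PIP2A at 721 ± 56.6 TPM and PIP1B at 639 ± 50.4 TPM. PIP2A is the most studied water channel of Arabidopsis leaves and guard cells, and PIP1B has been linked by mutants to the water conductance of roots and rosettes. The libraries of these 2 genes overlapped, so their order is not resolved. PIP3, also called a salt-stress-induced intrinsic protein, followed at 354 ± 48.1 TPM. PIP2E (237 ± 13.9 TPM), PIP1C (226 ± 27.8 TPM) and PIP1A (208 ± 10.9 TPM) came next, and each of these 3 overlapped its neighbour in that order. PIP1;4, a channel that also passes hydrogen peroxide, stood at 188 ± 5.68 TPM and PIP1;5 at 126 ± 19.6 TPM. PIP2B at 66.2 ± 3.13 TPM and RD28 at 24.1 ± 2.92 TPM were lowest. RD28 was named for its response to desiccation and is the same gene as PIP2;3. PIP1 and PIP2 transcripts were present in nearly equal amounts, with PIP2 holding 50.3% ± 0.497 (n = 3) of the summed TPM.

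**Figure D1:**
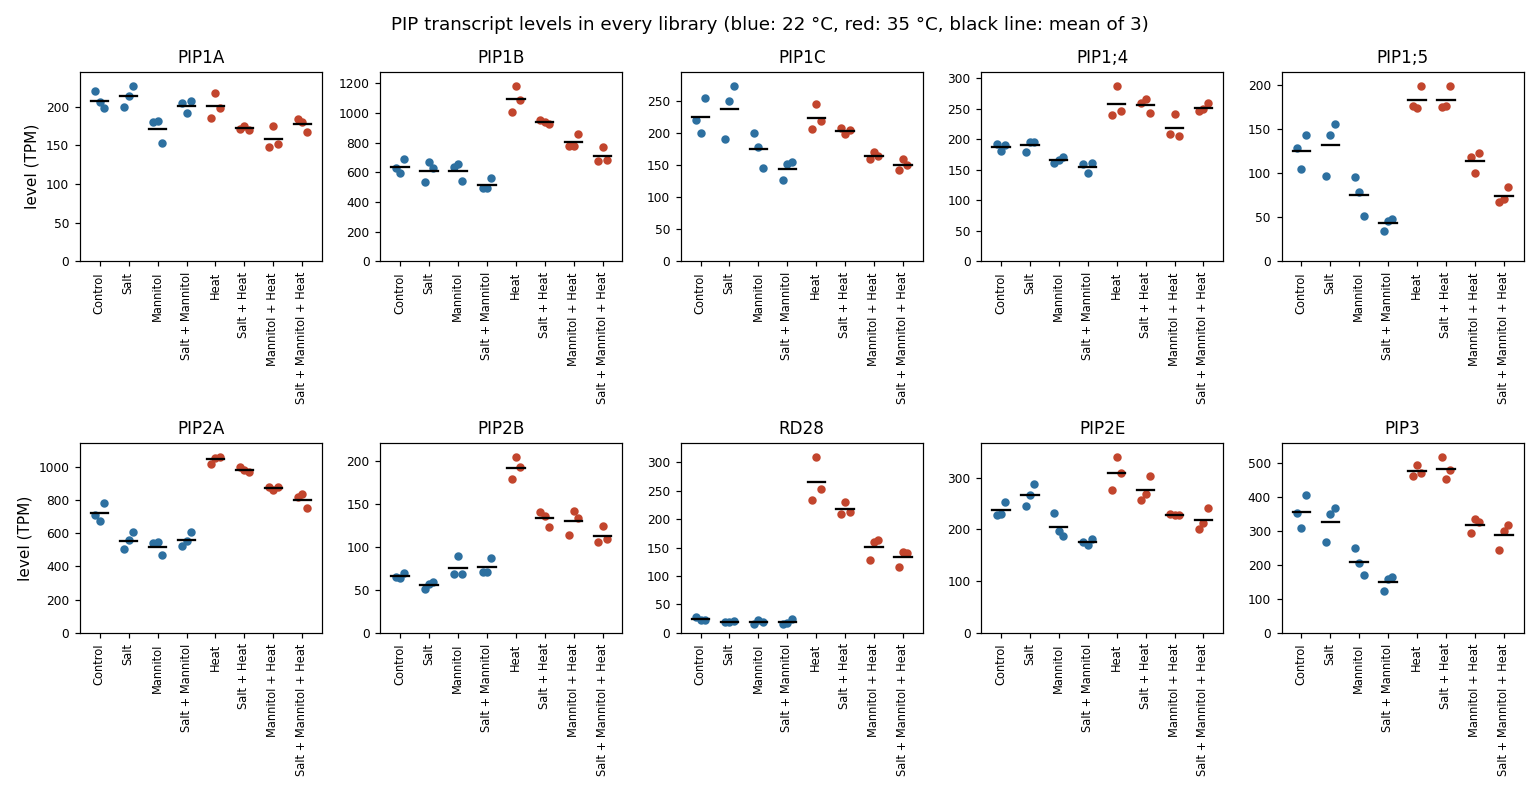
Level of each of the 10 PIP genes in every library, in TPM on a linear axis from 0, by group (blue at 22 °C, red at 35 °C, black line the mean of 3 libraries). RD28, PIP2B and PIP1;4 have all 12 heated libraries above all 12 unheated ones, whereas PIP1;5 and PIP3 also spread widely within each temperature.

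Heat raised 8 of the 10 genes against control and lowered 0, where 31.7% of all tested genes rose and 30.9% fell. The median log2 fold change of the 10 was 0.51, against -0.0022 over all tested genes. RD28 gave the largest change. Its level was 27.5, 22.5 and 22.4 TPM in the control libraries and 233, 309 and 253 TPM in the heat libraries. No library of one group came near the other group, and the fold was 11.1 (log2 3.47 ± 0.16, adjusted p = 1.44e-13). PIP2B, its neighbour, went from 64.8, 64.0 and 69.8 TPM to 179, 205 and 194 TPM, again without overlap, a fold of 2.94 (log2 1.55 ± 0.11, adjusted p = 4.38e-11).

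The abundant PIP1B and PIP2A rose less in proportion than RD28 and PIP2B, but their mean TPM differed by more between heat and control. PIP1B read 628, 595 and 694 TPM in control and 1010, 1183 and 1090 TPM in heat (log2 0.79 ± 0.10, adjusted p = 2.3e-07). PIP2A read 710, 671 and 782 TPM in control and 1019, 1056 and 1059 TPM in heat (log2 0.55 ± 0.08, adjusted p = 3.33e-06). For both genes all 3 heat libraries lay above all 3 controls, and in heat their ranges overlapped as they had in control. PIP1;5 (log2 0.56 ± 0.20), PIP1;4 (0.47 ± 0.08), PIP3 (0.44 ± 0.14) and PIP2E (0.40 ± 0.09) also rose, with every heat library above every control. PIP1C, at 224 ± 20.2 TPM in heat, and PIP1A, at 200 ± 16.2 TPM, overlapped their controls. Their log2 fold changes were 0.01 (95% interval -0.24 to 0.26) and -0.04 (-0.21 to 0.13). The calls of PIP1;5 and PIP3 rested on few libraries: without control 2 their log2 fold changes were 0.44 and 0.35 with adjusted p = 0.0894 and 0.0648, and without heat 3 that of PIP1;5 was 0.49 with adjusted p = 0.0647. Heated rosettes had a lower summed level of the mesophyll markers (24858 to 27199 TPM, control 50073 to 57492), guard cell markers (28.7 to 32.8 TPM, control 84.0 to 107) and epidermis markers (285 to 303 TPM, control 362 to 392) than control, and the bundle sheath markers, both of which fell, summed to at most 11.8 TPM, with every heat library below every control (at most 16.1 TPM). The sums of the xylem (73.9 to 75.6 TPM, control 52.7 to 61.5) and phloem markers (194 to 204 TPM, control 160 to 169) were higher, with members in both directions: 1 of 2 xylem markers rose and 1 fell, and 3 of 4 phloem markers rose and 1 fell. Their part in the PIP changes was not tested.

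**Figure D2:**
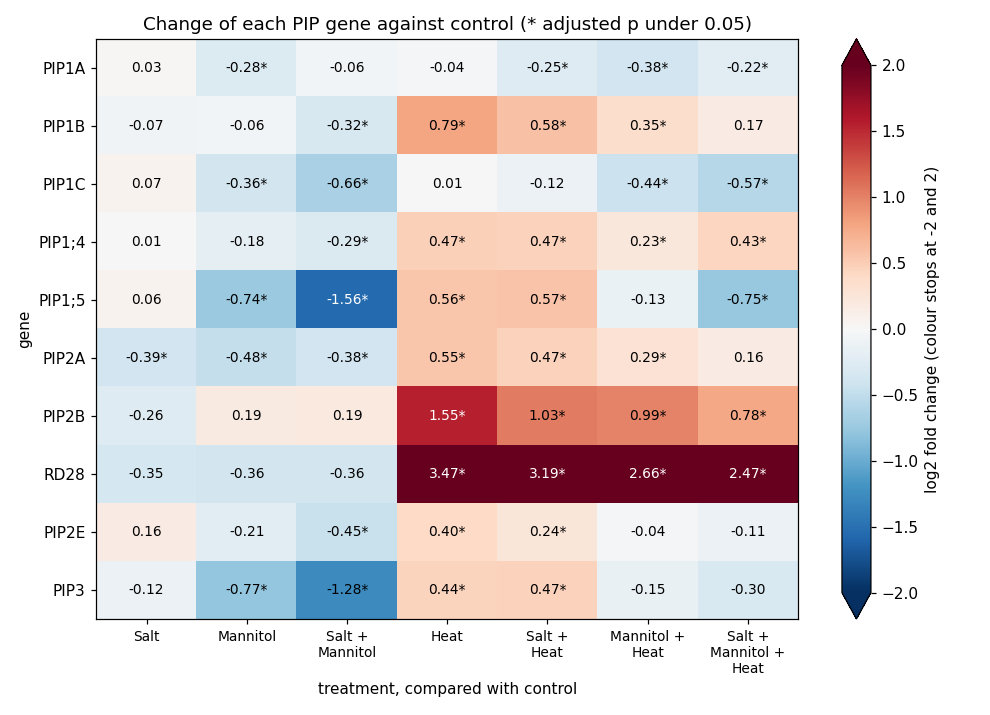
Log2 fold change of each PIP gene (rows) in each of the 7 treatments against control (columns), printed and coloured, with an asterisk where the adjusted p was under 0.05. The heat columns are led by RD28 (3.47 in heat) and PIP2B (1.55), and the salt plus mannitol column by PIP1;5 (-1.56) and PIP3 (-1.28).

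The neighbours RD28 and PIP2B changed places under heat. RD28 stood at 0.365 ± 0.0531 of the PIP2B level in control, and this ratio was 0.343 ± 0.0253 in salt, 0.249 ± 0.0215 in mannitol and 0.248 ± 0.0278 in salt plus mannitol. In heat it was 1.37 ± 0.119, in salt plus heat 1.64 ± 0.133, in mannitol plus heat 1.16 ± 0.0549 and in salt plus mannitol plus heat 1.18 ± 0.102. Every one of the 12 heated libraries had more RD28 than PIP2B and every one of the 12 unheated libraries less. Because the pair shares stretches of sequence, their sum is the safer value: it was 90.3 ± 3.34 TPM in control and 457 ± 51.7 TPM in heat. RD28 made up 0.865% of the family's transcripts in control and 6.25% in heat.

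**Figure D3:**
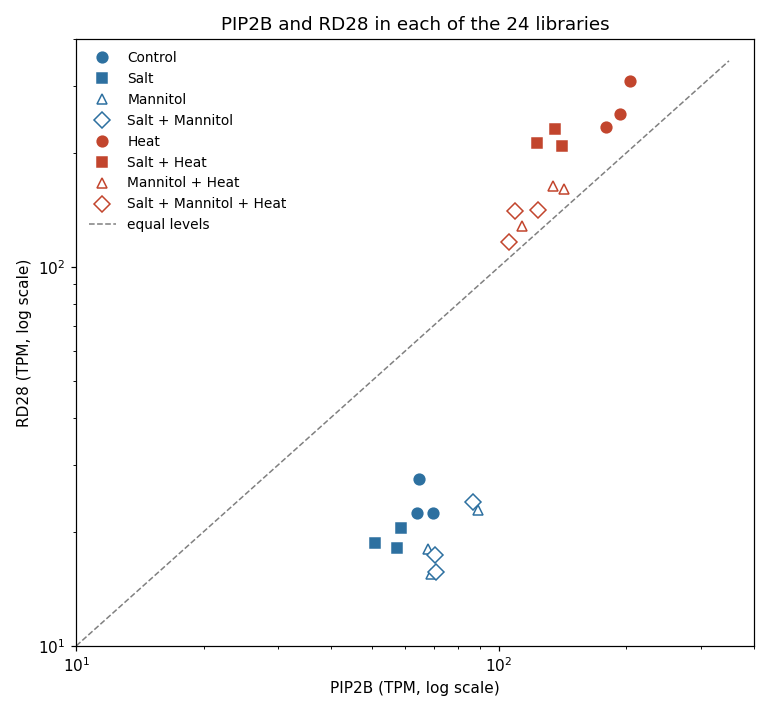
Level of RD28 against that of PIP2B in each library, in TPM on log axes, with the line of equal levels dashed. The 12 unheated libraries lie below the line, with RD28 at 15.5 to 27.5 TPM, and the 12 heated libraries above it, with RD28 at 116 to 309 TPM.

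The 250 bases before the annotated start of each gene were searched on both strands for short motifs of known stress factors. The heat shock element, the site of heat shock factors, was spelled GAANNTTC or TTCNNGAA. It occurred in the promoters of RD28, 237 to 230 bases before the start, and of PIP3, 31 to 24 bases before it, and in 16.1% of 27444 promoters of this length. The core of the abscisic acid response element (ACGTG) was in 0 of the 10, against 22.9% of all promoters, the G-box (CACGTG, which holds that core) in 0 against 6.49%, and the evening element (AAAATATCT) in 0 against 2.36%. The core of the dehydration response element (CCGAC) was in that of PIP1C and in 12.0% of all. The W-box (TTGAC) was in 5 of the 10, PIP1C, PIP1;4, PIP1;5, PIP2A and PIP3, and in 44.9% of all. The windows of the 2 genes that heat raised most are shown 5′ to 3′ along each gene's own strand, from RefSeq (TAIR10.1), RD28 at chr2:15617385-15617634 and PIP2B at chr2:15615023-15615272 (minus strand), with the match to the heat shock element in capitals.
RD28: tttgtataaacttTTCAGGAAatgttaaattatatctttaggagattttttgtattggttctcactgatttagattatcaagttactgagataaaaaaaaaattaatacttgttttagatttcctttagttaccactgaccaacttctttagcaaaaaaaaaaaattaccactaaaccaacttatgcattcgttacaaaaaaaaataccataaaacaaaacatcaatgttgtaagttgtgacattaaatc
PIP2B: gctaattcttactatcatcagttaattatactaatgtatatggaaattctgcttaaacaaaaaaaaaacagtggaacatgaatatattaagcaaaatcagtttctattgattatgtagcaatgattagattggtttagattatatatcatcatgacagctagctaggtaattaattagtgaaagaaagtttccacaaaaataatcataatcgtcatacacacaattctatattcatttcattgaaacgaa
A match is a description of the letters in this window.

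Salt alone lowered 1 gene, PIP2A, and raised 0, where 4.54% of all tested genes rose and 6.40% fell. With library totals alone as the scaling, which shifted the median of all genes by 0.11, 2434 genes rose and 747 fell, against 909 and 1282 with TMM factors. PIP2A read 502, 559 and 605 TPM in salt, all below the 671 to 782 TPM of control (log2 -0.39 ± 0.08, adjusted p = 0.00375). PIP2B (55.6 ± 4.09 TPM) and RD28 (19.1 ± 1.25 TPM) also had every salt library below every control, but their log2 fold changes of -0.26 ± 0.11 and -0.35 ± 0.16 gave adjusted p = 0.137 and 0.171. Both were called as lower when the salt and control libraries were fitted alone (-0.25 and -0.34, adjusted p = 0.044 and 0.0349), and PIP2E as higher with library totals alone (0.27, 0.0413). For PIP1;4 the interval of the log2 change ran from -0.15 to 0.17 and for PIP1A from -0.14 to 0.20.

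Mannitol lowered 5 genes and raised 0, where 12.2% of all tested genes rose and 11.4% fell, or 3827 and 1398 genes with library totals alone (2447 and 2280 with TMM). PIP3 went from 351, 307 and 404 TPM in control to 249, 206 and 169 TPM in mannitol (log2 -0.77 ± 0.14, adjusted p = 0.000479). PIP1;5 went from 129, 105 and 143 TPM to 96.5, 79.1 and 51.3 TPM (log2 -0.74 ± 0.20, adjusted p = 0.0104). Neither gene's groups overlapped, and mannitol 3 was the lowest library for both. PIP2A fell by 0.48 ± 0.08 on the log2 scale (adjusted p = 0.000157), PIP1C by 0.36 ± 0.12 and PIP1A by 0.28 ± 0.08. PIP2B, at 75.3 ± 12.0 TPM, and PIP1B, at 612 ± 63.2 TPM, overlapped their controls, as did PIP1C, RD28 and PIP2E. PIP1;4 had every mannitol library below every control, but its log2 fold change of -0.18 ± 0.08 gave adjusted p = 0.0939. The third mannitol library weighed on these calls: without it PIP1A (log2 -0.20, adjusted p = 0.125), PIP1C (-0.25, 0.2) and PIP1;5 (-0.52, 0.0571) were no longer called, PIP1C and PIP1;5 were also lost without control 3 (-0.27, adjusted p = 0.182, and -0.63, 0.0533), PIP1A without control 1 (-0.24, 0.0643) and PIP1C without mannitol 2 (-0.39, 0.0617). With library totals alone PIP1A (-0.18, adjusted p = 0.0995) and PIP1C (-0.27, 0.0873) were not called either, and with the mannitol and control libraries fitted alone PIP1A, PIP1C and PIP1;5 were not (adjusted p = 0.0899, 0.0995 and 0.0801). Conversely, RD28 was called as lower without mannitol 2 (-0.53, adjusted p = 0.0281) and PIP2E without mannitol 1 (-0.31, 0.0232).

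Salt and mannitol together lowered 7 genes and raised 0, where 15.4% of all tested genes rose and 17.2% fell, or 5298 and 2298 genes with library totals alone (3083 and 3441 with TMM). PIP1;5 fell most, to 35.0, 45.8 and 48.7 TPM, about 0.339 of its control level (log2 -1.56 ± 0.20, adjusted p = 1.82e-05). PIP3 fell to 121, 158 and 164 TPM, 0.413 of control (log2 -1.28 ± 0.15, adjusted p = 2.41e-06). Both lay wholly below their controls. PIP1C fell by 0.66 ± 0.12 on the log2 scale, PIP2E by 0.45 ± 0.09, PIP2A by 0.38 ± 0.08, PIP1B by 0.32 ± 0.10 and PIP1;4 by 0.29 ± 0.08. PIP1A (201 ± 8.47 TPM) and RD28 (19.0 ± 4.36 TPM) overlapped control, and all 3 libraries of PIP2B (76.2 ± 9.09 TPM) lay above control with log2 0.19 ± 0.11 and adjusted p = 0.195. PIP1B was not called without control 3 (log2 -0.25, adjusted p = 0.09) or without salt plus mannitol 1 or 2 (-0.28, 0.0678, and -0.29, 0.0534), and with library totals alone neither PIP1B (-0.20, adjusted p = 0.0738) nor PIP1;4 (-0.18, 0.0838) was, while PIP2B was called as higher (0.31, 0.0248). RD28 was called as lower without salt plus mannitol 3 (-0.56, adjusted p = 0.00991). The summed guard cell markers (23.4 to 34.8 TPM), epidermis markers (250 to 297 TPM) and mesophyll markers (35692 to 39257 TPM) were below control in these libraries too, the summed phloem markers (180 to 202 TPM) were above it, and their part was not tested.

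In heated plants that had been watered with salt, most of the family again stood above control. Salt plus heat raised 8 genes and lowered 1 against control, where 31.7% of all tested genes rose and 31.5% fell. RD28 read 209, 231 and 212 TPM (log2 3.19 ± 0.16) and PIP2B 141, 136 and 123 TPM (1.03 ± 0.11), all above control. PIP1B (0.58 ± 0.10), PIP1;5 (0.57 ± 0.20), PIP2A (0.47 ± 0.08), PIP1;4 (0.47 ± 0.08), PIP3 (0.47 ± 0.14) and PIP2E (0.24 ± 0.09) rose. PIP1A fell to 172 ± 2.44 TPM (log2 -0.25 ± 0.08, adjusted p = 0.011). PIP1A was not called without control 1 (-0.21, adjusted p = 0.0549) or with library totals alone (-0.16, 0.0857). PIP2E was lost without control 1, control 2 or salt plus heat 3 (0.21, 0.22 and 0.17, adjusted p = 0.0917, 0.0808 and 0.157), and PIP1;5 without control 2 or salt plus heat 3 (0.45 and 0.51, adjusted p = 0.0804 and 0.0562).

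In heated plants that had been watered with mannitol, members stood both above and below control. Set against plants given mannitol without heat, 7 genes rose and 0 fell, as given below. Against control, mannitol plus heat raised 5 genes and lowered 2, where 32.6% of all tested genes rose and 32.0% fell, or 7800 and 5016 genes with library totals alone (6534 and 6416 with TMM). RD28 read 128, 160 and 164 TPM (log2 2.66 ± 0.16) and PIP2B 114, 142 and 134 TPM (0.99 ± 0.11). PIP1B (0.35 ± 0.10), PIP2A (0.29 ± 0.08) and PIP1;4 (0.23 ± 0.08) rose, whereas PIP1C, at 160, 171 and 165 TPM, and PIP1A, at 148, 175 and 152 TPM, fell below all controls (-0.44 ± 0.12 and -0.38 ± 0.08). PIP1;5, PIP3 and PIP2E, which heat alone raised, overlapped control here. Without mannitol plus heat 2, the library that stood apart, 4 genes rose and 2 fell, and PIP1;4 was the one no longer called (0.16, adjusted p = 0.0792). The same gene was lost without control 2 (0.20, adjusted p = 0.0502).

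All 3 treatments together raised 3 genes and lowered 3 against control, where 33.0% of all tested genes rose and 32.7% fell, or 8438 and 4845 genes with library totals alone (6611 and 6543 with TMM), a scaling that shifted the median of all genes by 0.17. RD28 (116, 142 and 141 TPM, log2 2.47 ± 0.16), PIP2B (106, 124 and 109 TPM, 0.78 ± 0.11) and PIP1;4 (247, 249 and 259 TPM, 0.43 ± 0.08) rose. PIP1;5 (67.1, 70.9 and 84.6 TPM, -0.75 ± 0.20), PIP1C (143, 160 and 151 TPM, -0.57 ± 0.12) and PIP1A (185, 180 and 167 TPM, -0.22 ± 0.08) fell. Each of these 6 had its libraries wholly outside control. PIP2A (801 ± 44.4 TPM), PIP1B (712 ± 54.3 TPM), PIP2E (218 ± 21.5 TPM) and PIP3 (286 ± 38.9 TPM) overlapped control. PIP1A was not called without control 1 or salt plus mannitol plus heat 3 (-0.19 and -0.18, adjusted p = 0.0786 and 0.0921) or with library totals alone (-0.05, 0.604), where PIP1B and PIP2A were called as higher (0.34 each, adjusted p = 0.00153 and 0.000253). PIP2A was also called without control 3 (0.23, adjusted p = 0.0299), and PIP3 was called as lower without control 2 (-0.40, 0.0308) or salt plus mannitol plus heat 3 (-0.38, 0.0446).

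Set against plants given the same solution at 22 °C, heat raised most of the family on every background. After salt it raised 7 genes and lowered 1, where 30.6% of all tested genes rose and 28.5% fell. After mannitol it raised 7 and lowered 0 (30.9% and 30.1% of all genes), and after salt plus mannitol 8 and 0 (30.5% and 29.4%). RD28 rose on each background, by log2 3.54 ± 0.16 after salt, 3.02 ± 0.16 after mannitol and 2.83 ± 0.16 after the mixture. PIP2A, PIP1B, PIP1;4, PIP3, PIP1;5 and PIP2B also rose on all 3. For PIP3 the change was 0.59 ± 0.14 after salt, 0.62 ± 0.14 after mannitol and 0.98 ± 0.14 after the mixture. PIP2E rose after the mixture (0.33 ± 0.09), with 0.08 ± 0.09 after salt and 0.17 ± 0.09 after mannitol. PIP1A fell after salt (-0.28 ± 0.08, adjusted p = 0.00599), and PIP1C was called on none of the backgrounds, with intervals from -0.44 to 0.06, -0.33 to 0.18 and -0.17 to 0.34. The call of PIP1;5 after salt was lost without salt 1 (0.32, adjusted p = 0.175) or any of the salt plus heat libraries (0.53, 0.53 and 0.44, adjusted p = 0.0523, 0.0524 and 0.102), and its call after mannitol without mannitol 3 (0.39, 0.0709). The call after salt was also lost without a filter on low counts (0.48, adjusted p = 0.0565) and with the compared groups fitted alone (0.50, 0.062), while PIP1A was called as lower after the mixture with the compared groups alone (-0.17, 0.0488). Without salt 1 PIP1C was called as lower after salt (-0.33, adjusted p = 0.0223), and without mannitol 1 PIP2E as higher after mannitol (0.27, 0.0235).

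**Figure D4:**
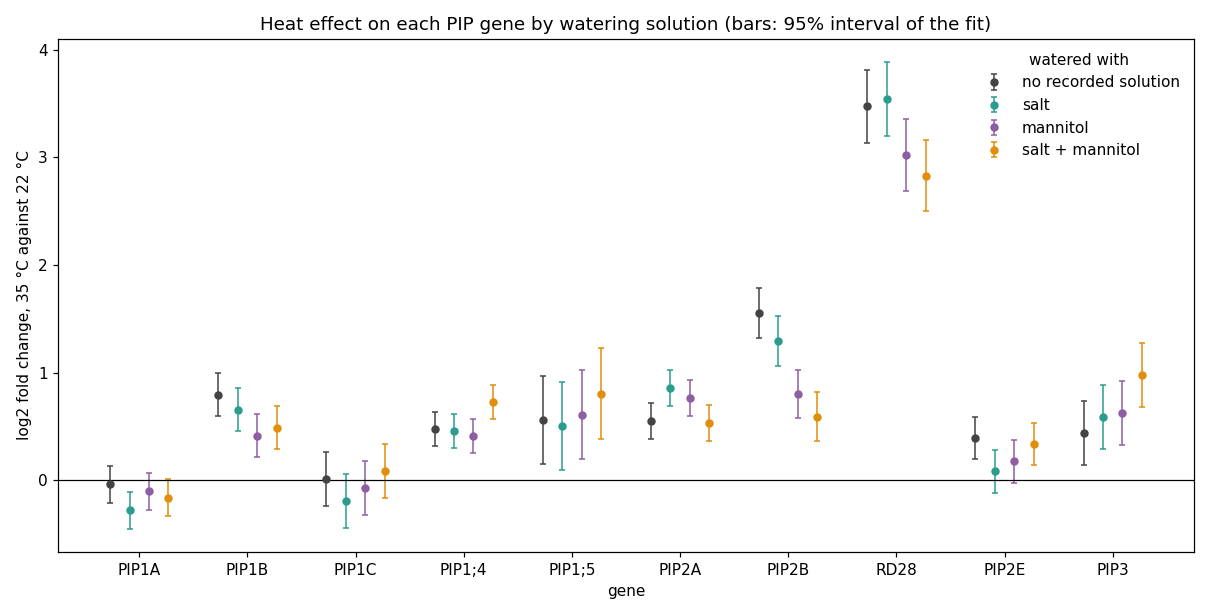
Log2 fold change of each PIP gene between 35 °C and 22 °C, separately for plants with no recorded solution and plants given salt, mannitol or both, with the 95% interval of the fit as bars. RD28 lies far above the others on every background (2.83 to 3.54), PIP2B runs from 1.55 with no recorded solution to 0.59 after the mixture, and all intervals of PIP1C include 0.

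Within heated plants, 10 members were called lower after mannitol and 8 after the mixture than in plants heated alone, while salt changed 1 member. The count of 10 was as low as 4 with 1 library left out, as given below. Salt plus heat against heat alone lowered 1 gene, PIP2B, and raised 0, where 0.365% of all tested genes rose and 0.664% fell, or 87 and 91 genes with library totals alone (73 and 133 with TMM). PIP2B stood at 133 ± 9.20 TPM, below all heat libraries (log2 -0.52 ± 0.11, adjusted p = 0.0215), and this call was lost without heat 2, heat 3 or any of the salt plus heat libraries (log2 -0.48, -0.51, -0.56, -0.53 and -0.47, adjusted p = 0.111, 0.0589, 0.0615, 0.0865 and 0.0716).

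Mannitol plus heat against heat alone lowered all 10 genes, where 6.00% of all tested genes rose and 6.31% fell, or 2001 and 818 genes with library totals alone (1201 and 1264 with TMM). RD28 (-0.82 ± 0.15), PIP1;5 (-0.68 ± 0.20), PIP3 (-0.58 ± 0.14) and PIP2B (-0.57 ± 0.11) fell most, and PIP1;4 (-0.24 ± 0.08) and PIP2A (-0.26 ± 0.08) least. For 9 genes all mannitol plus heat libraries lay below all heat libraries, and PIP1;4 overlapped. The count of 10 was sensitive to single libraries. It was 4 without heat 2 or without mannitol plus heat 1, and 8 without mannitol plus heat 2, where PIP1;5 (log2 -0.60, adjusted p = 0.104) and PIP2A (-0.25, 0.0844) were not called. Without heat 2 the calls lost were PIP1A (-0.29, adjusted p = 0.0638), PIP1C (-0.38, 0.11), PIP1;4 (-0.16, 0.231), PIP1;5 (-0.73, 0.0744), PIP2A (-0.26, 0.101) and PIP3 (-0.56, 0.0509). The same 6 were lost without mannitol plus heat 1, with log2 fold changes of -0.30, -0.42, -0.21, -0.71, -0.27 and -0.53 and adjusted p = 0.0532, 0.0694, 0.137, 0.065, 0.0775 and 0.0527. Without heat 3 PIP1;5 (-0.62, adjusted p = 0.0783) and PIP2A (-0.26, 0.0788) were lost, and without mannitol plus heat 3 PIP1;4 (-0.20, 0.136), PIP1;5 (-0.74, 0.0513) and PIP2A (-0.27, 0.0685). RD28, PIP2B, PIP1B and PIP2E kept their calls with each of the 6 libraries left out. When the heat and mannitol plus heat libraries were fitted alone the count was 5, and PIP2E (-0.43, adjusted p = 0.0647), PIP1A (-0.34, 0.126), PIP1C (-0.44, 0.0522), PIP1;4 (-0.24, 0.275) and PIP2A (-0.26, 0.132) were not called. Without a filter on low counts PIP1;4 and PIP2A were lost (adjusted p = 0.0696 and 0.0582). With library totals alone PIP1;4 and PIP2A were not called (-0.18 and -0.20, adjusted p = 0.126 and 0.0601).

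The mixture plus heat against heat alone lowered 8 genes and raised 0, where 9.97% of all tested genes rose and 13.1% fell, or 3684 and 1477 genes with library totals alone (1996 and 2627 with TMM). PIP1;5 fell to 0.403 of its heat level (log2 -1.31 ± 0.20, adjusted p = 0.000187) and RD28 to 0.499 (adjusted p = 8.53e-05). PIP2B (-0.77 ± 0.11), PIP3 (-0.74 ± 0.14), PIP1B (-0.63 ± 0.10), PIP1C (-0.58 ± 0.12), PIP2E (-0.51 ± 0.09) and PIP2A (-0.39 ± 0.08) fell as well. PIP1;4 was at 252 ± 6.46 TPM in the mixture plus heat and 258 ± 25.8 TPM in heat, with an interval of the log2 change from -0.20 to 0.11. The calls were 8 without any of the 6 libraries in turn.

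The departures of the combinations from the sum of their parts were tested on the log2 scale. Salt and mannitol each carry watering, and their mixture was watered 1 time, so a departure here cannot be told apart from an effect of watering counted in both parts. PIP2A departed upward by 0.49 ± 0.11 (adjusted p = 0.014) from the sum of the salt and mannitol effects, the only member called in this fit, where 6.60% of all tested genes were called in either direction (569 upward and 753 downward, or 327 and 1348 with library totals alone). It read 555 ± 51.4 TPM in salt, 518 ± 43.4 TPM in mannitol and 562 ± 40.7 TPM in the mixture, so the mixture did not lie below either part. PIP1;5 departed downward by 0.89 ± 0.28 with adjusted p = 0.0632, and was called without salt 1 (-1.07, 0.0208) or mannitol 3 (-1.11, 0.0106). PIP2E departed by -0.40 ± 0.13 with adjusted p = 0.0758, and was called without mannitol 3 (-0.46, 0.0407). DESeq2 called both PIP1;5 and PIP2E as well (-0.88 and -0.39, adjusted p = 0.0196 and 0.0485), as did library totals alone (-0.97 and -0.48, adjusted p = 0.0306 and 0.0209).

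For salt with heat, 0 members were called in edgeR and 0 in DESeq2 and limma, where 1.40% of all tested genes were called in either direction (172 upward and 109 downward, or 85 and 193 with library totals alone) and 2 members had an unadjusted p under 0.05. For mannitol with heat, PIP2B departed by -0.75 ± 0.15 (adjusted p = 0.0046), the only member called in edgeR with TMM factors, against 8.78% of all genes. Its heat rise was log2 1.55 ± 0.11 in plants with no recorded solution and 0.80 ± 0.11 after mannitol. For the mixture with heat, PIP2B departed by -0.96 ± 0.15 (adjusted p = 0.000853), again the only member called in edgeR, against 5.58% of all genes, and its heat rise was 0.59 ± 0.11 after the mixture. RD28 departed by -0.45 ± 0.21 and -0.64 ± 0.21 with adjusted p = 0.187 and 0.0794, while DESeq2 called the departure of RD28 for the mixture (-0.66, adjusted p = 0.0361). Without heat 1, RD28 was called for the mixture (-0.73, adjusted p = 0.0472) and PIP1B for mannitol (-0.44, 0.0492), and PIP1B was called without mannitol 3 as well (-0.47, 0.0401), by DESeq2 (-0.38, 0.0482) and with library totals alone (-0.42, 0.0386).

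Summed over the 10 genes, the family stood at 2788 ± 216 TPM in control, 2610 ± 286 TPM in salt, 2225 ± 222 TPM in mannitol and 2042 ± 139 TPM in salt plus mannitol. In heated plants it stood at 4244 ± 262 TPM in heat, 3847 ± 36.6 TPM in salt plus heat, 3160 ± 91.9 TPM in mannitol plus heat and 2917 ± 124 TPM in the mixture plus heat (n = 3 each). The heat libraries (3986 to 4510 TPM) lay above all control libraries (2582 to 3012 TPM), while the mixture plus heat libraries (2800 to 3048 TPM) overlapped them. PIP2 held 46.0% to 50.3% of the sum as group means at 22 °C and 53.2% to 54.3% at 35 °C. The family's composition thus differed between groups whose sums overlapped: RD28 and PIP2B together held 90.3 ± 3.34 TPM in control and 246 ± 21.8 TPM in the mixture plus heat.

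**Figure D5:**
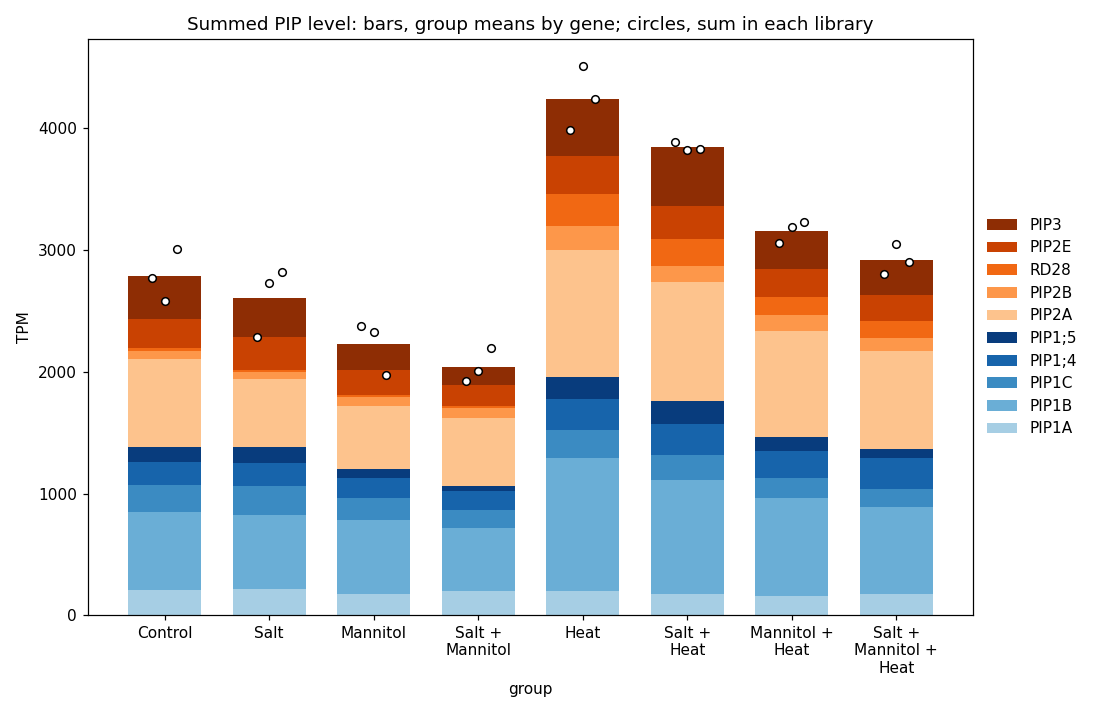
Summed level of the 10 PIP genes by group, in TPM from 0, with bars stacked from group means (PIP1 genes in blue, PIP2 genes in orange) and circles for the sum in each library. The sum runs from 2042 TPM in salt plus mannitol to 4244 TPM in heat, and PIP1B and PIP2A form the thickest layers in every bar.

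The spread of group means over the 8 groups differed among the genes. The highest group mean was 14.1 times the lowest for RD28, 4.26 times for PIP1;5, 3.46 times for PIP2B and 3.26 times for PIP3, and 1.35 times for PIP1A. Over the 8 group means of log2 counts scaled by library size, PIP1;5 and PIP3 correlated at r = 0.970 with each other, PIP1;5 and PIP2E at 0.963, PIP2A and RD28 at 0.952, PIP2E and PIP3 at 0.948 and PIP2B and RD28 at 0.947. The lowest r of any pair was -0.413, between PIP1A and RD28. These are descriptions over groups that share the same libraries and scaling.

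Among 13428 other genes with at least 5 TPM, those most like the mean PIP1 pattern over the 8 groups were AT3G27770 (r = 0.987), CRLK1 (0.982), a calcium-regulated receptor-like kinase, and AT1G30200 (0.978). Those most like the mean PIP2 pattern were AT5G26990 (r = 0.992), AMI1 (0.990), an amidase, and HDH (0.990), histidinol dehydrogenase. Of single members, RD28 ran with AT3G60210 (r = 0.998), PIP2A with DHAR3 (0.995), a dehydroascorbate reductase, PIP1C with XTH6 (0.991), a xyloglucan-modifying enzyme of the cell wall, and PIP1;4 with bZIP1 (0.988), a transcription factor. AT5G26990 and XTH6 did not hold that place on the log2(TPM + 1) scale. These values describe likeness over 8 points.

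Of the 3 PIP genes outside the set, all had low levels: in control 13.5 ± 2.47 TPM for PIP2;5, 11.7 ± 1.43 TPM for PIP2;8 and 2.98 ± 0.449 TPM for PIP2;4. Heat raised PIP2;5 (log2 0.38 ± 0.11) and lowered PIP2;8 (-0.57 ± 0.13). The TIP genes encode the aquaporins of the vacuolar membrane, and 6 of 10 could be tested. Heat raised 3 of them and lowered 0, with TIP1;1 going from 181 ± 26.9 to 662 ± 23.5 TPM (log2 1.89 ± 0.12) and TIP2;2 from 72.6 ± 9.95 to 206 ± 15.9 TPM (1.52 ± 0.11). Salt plus mannitol lowered 3 of them, TIP2;1 (-1.78 ± 0.30), TIP1;2 (-1.41 ± 0.20) and TIP1;1 (-0.33 ± 0.12). Of all 18 tested aquaporins outside the set, 5 rose and 5 fell in heat, 0 rose and 3 fell in salt, 1 rose and 2 fell in mannitol, and 2 rose and 8 fell in salt plus mannitol. These counts read against the shares of all tested genes given above, and the heat counts of 5 and 5 lie near the 31.7% and 30.9% of all genes. The small intracellular SIP genes fell in heat in 2 of 3 cases, SIP1;2 with a log2 change of -1.94 ± 0.22.

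A list of 15 genes reported to act on PIP proteins was examined beside the channels. It was drawn up from the literature and is not complete. TSPO, a stress-induced membrane protein known to carry PIP3 to breakdown, had 7, 5 and 0 reads in control and 149, 78 and 113 in salt (log2 4.88 ± 0.90, adjusted p = 0.00264). It also rose in mannitol, with 19, 27 and 171 reads (3.90 ± 0.97), and in salt plus mannitol (5.43 ± 0.86), and its log2 fold change of 2.18 ± 1.19 in heat gave adjusted p = 0.12. SYP121, a syntaxin that delivers PIPs to the plasma membrane, rose in mannitol (0.63 ± 0.20) and fell in heat (-0.83 ± 0.21). RMA1, a ubiquitin ligase of PIP breakdown, rose in heat (0.43 ± 0.11). SIRK1 and QSK1, receptor kinases that act on aquaporins, fell in heat (-0.58 ± 0.12 and -0.33 ± 0.09), and CPK7, a calcium-dependent kinase, rose in mannitol (0.37 ± 0.08) and in salt plus mannitol (0.40 ± 0.08). In all, 2 of the 15 rose and 7 fell in heat, 1 and 1 in salt, 4 and 2 in mannitol, and 5 and 2 in salt plus mannitol, beside the shares of all genes given above. The genes named here are only a part of those called. The 1 that fell in salt and the 2 that fell in mannitol are among those not named.

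The authors' deposited table holds their own calls for the 7 comparisons with control. At a q-value under 0.05 it called 0 members higher and 1 lower in salt, 0 and 2 in mannitol, 8 and 1 in heat, 0 and 8 in salt plus mannitol, 8 and 2 in salt plus heat, 5 and 4 in mannitol plus heat and 5 and 4 with all 3 treatments. The share of all genes under that q-value was not computed, so these counts have no background beside them. The shares given above are from edgeR and do not apply to the authors' calls. The fewer calls in mannitol in the authors' deposited table include q = 0.0949 for PIP1;5. The member called lower in heat in the authors' deposited table was PIP1A (q = 0.0123), whose deposited change was -0.0333 on the log2 scale. Direction was read from the sign of the deposited change, whatever its size, so some calls of lower go with changes near 0. PIP2E in mannitol plus heat (-0.0301, q = 0.00574) and PIP1A in salt plus mannitol (-0.0546, q = 0.0472) were also of this kind, while other calls of lower had larger changes.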

How the data were processed

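RNA-seq of 24 rosette samples was analysed from the authors' deposited table. Per the file headers it holds estimated counts for 1 transcript model per gene, TPM, q-values and log changes. The submitters' processing notes name kallisto 0.45.1, sleuth 0.30.0 and, without a version, CASAVA. The genome build and read filters are not given in the sources used here. The deposited estimated counts were multiples of a constant per library (0.797 to 1.25, with 94.5% to 95.0% of values whole within 0.001), which was divided out and the result rounded to whole reads. The deposited TPM were used as a signal, since they sum to 0.920 to 1.12 M per library and so had been rescaled, which bears on levels compared between libraries. The deposited q-values (p-values adjusted by the authors) and changes, read as natural log from their size and converted to log2, were used only where named.

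Groups were taken from the labels. Genes passing filterByExpr (20027) were fitted over all 24 libraries with edgeR 4.0.16 in R 4.3.3 (TMM factors, robust quasi-likelihood test, Benjamini-Hochberg adjustment, threshold 0.05) in 17 comparisons. The procedure was tested on simulated data. Depth was 12.5 to 19.5 M reads per library, with 318 or more reads per member in each. The alternatives were DESeq2 1.42.0, limma 3.58.1 on log2(TPM + 1), other scalings and filters, the groups compared alone, a replicate block and each library left out. Likeness of pattern was Pearson's r over the 8 group means of log2 counts scaled by library size, among genes of at least 5 TPM on average, and the 3 closest genes per subfamily mean and the closest per member were taken. All 10 members were to be named, and listed aquaporins and regulators where called, at most 4 per direction and comparison. Fewer aquaporins and regulators were named than this allows. The members and lists were chosen with earlier results of these data known. Sequences and gene positions are from RefSeq (TAIR10.1), and 26642 of 26643 genes with deposited coordinates overlapped their RefSeq gene. No spike-ins or lane assignments were given, so a change in total RNA or between sequencing lanes cannot be told apart from the treatments.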

Additional observations from a re-analysis of the deposited data

Results flagged for a closer look

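Members whose response to a treatment differed between backgrounds, by a test of the difference itself in edgeR, were PIP2A and PIP2B. Each of these tests called 1 of the 10 members. The shares of all tested genes called were 6.60%, 8.78% and 5.58%, in the order below. The effect of mannitol on PIP2A differed between plants without and with salt by 0.49 on the log2 scale. In that sum watering counts in both parts. The effect of heat on PIP2B differed by -0.75 between plants with no recorded solution and plants given mannitol, and by -0.96 for the mixture. Watering and solute cannot be told apart in these differences. PIP2B shares 24.4% of its 31-base stretches with other genes, nearly all with RD28, and how far reads were split between PIP2B and RD28 was not tested.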

How the results depend on the processing

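Of 170 results for members (10 genes in 17 comparisons), 88 were called, and 66 of these were called under every alternative run. A call was lost in 13 under at least 1 other setting and in 20 with at least 1 library left out, and 0 changed sign. With library totals alone, 2 members were called in salt (1 higher, 1 lower), 3 in mannitol, 3 in the departure of salt with mannitol and 2 in that of mannitol with heat. With the compared groups alone, 3 were called in salt, 2 in mannitol and 5 in mannitol plus heat against heat. DESeq2 called 3 in the departure of salt with mannitol, 2 in that of mannitol with heat and 2 in that of the mixture with heat.

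With 1 library left out, members called against control ranged from 1 to 1 in salt, 2 to 6 in mannitol, 6 to 8 in heat, 6 to 8 in salt plus mannitol, 7 to 9 in salt plus heat, 6 to 7 in mannitol plus heat and 5 to 7 with all 3 treatments. For heat on the same background they ranged from 7 to 8 after salt, 6 to 8 after mannitol and 8 to 8 after the mixture, and against heat alone from 0 to 1 with salt, 4 to 10 with mannitol and 8 to 8 with both. For the departures they ranged from 1 to 3 for salt with mannitol, 0 to 0 for salt with heat, 1 to 2 for mannitol with heat and 1 to 2 for the mixture with heat. The cause of these changes was not tested.

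Whether replicate numbers pair the libraries was not settled. Deviations of same-numbered libraries correlated at -0.334 to 0.282, with 7, 6 and 8 of 28 pairs over 0.1. By mean correlation, 14 of 24 libraries were closest to their own number. The replicate block changed 1 call, RD28 in salt plus mannitol (log2 -0.38, adjusted p = 0.0457).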
